A study of Mus musculus with 16 samples.

Results

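The genes described here are 9 candidates that lie outside chromosome 8, the chromosome of Lpl: Rgs1, Dlk1, Baiap2l1, Tff3, Akr1b8, Slc25a35, Csrp3, Ano3 (AI838058 on the array) and Nupl2. They are 9 of 36824 features on the array, and each was measured by 1 probe. Csrp3, Ano3, Rgs1, Dlk1, Nupl2 and Akr1b8 were selected on their small p in Lpl+/- against wild type livers. Csrp3, Tff3, Slc25a35 and Baiap2l1 were chosen by the log ratios of the Lpl+/- livers alone, which passed a threshold against the pool. The group differences of the 9 genes are therefore given as a description, with no test.

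The livers came from male mice on a chow diet, 8 Lpl+/- mice, which carry 1 knockout allele of the lipoprotein lipase gene, and 8 wild type littermates. Each liver was hybridised on a 2-colour expression array against 1 common pool of RNA from 9 wild type livers. The labels name no age or strain, and do not say whether the wild type mice also gave RNA to the pool. Values are log ratios, taken as log10 and likely mouse over pool, so 0 means the level of the pool. No label states the base of the logarithm, and every fold printed here depends on it. A log ratio holds no level, so neither the abundance of a gene in liver nor the presence of hepatocyte markers could be checked. In bulk liver, fewer cells of a type and less RNA per cell cannot be told apart.

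Array medians lay between -0.0045 and 0.0072, and between 0 and 88 values of an array were at the limits of the scale, none of them of the 9 genes. Of 120 pairs of arrays, 1 had a correlation under -0.3 over all probes, that of wild type 5 with wild type 8 (r = -0.352). Wild type 5 correlated positively with wild type 4 (r = 0.364) and wild type 8 with wild type 7 (r = 0.381). Other pairs of either array went both ways. The labels do not settle the direction of the ratio for these arrays, and whether either sign is turned was not tested. Group differences are also given below with either sign turned. Lpl itself averaged -0.387 ± 0.142 in Lpl+/- livers and -0.00898 ± 0.0459 in wild type livers (SD, n = 8 each), and its low value was part of what made the direction likely.

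Lipoprotein lipase clears triglycerides from circulating lipoproteins in muscle and fat, and the adult liver makes little of it. The 9 genes do not form a pathway. Rgs1, Dlk1 and Baiap2l1 act in signalling at the cell surface and cortex, Tff3 is a secreted peptide of mucous epithelia, and Akr1b8 and Slc25a35 belong to families of enzymes and carriers of metabolism. Csrp3 is a structural protein of muscle, Ano3 a membrane protein known mainly from neurons, and Nupl2 a protein of the nuclear pore.

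The promoters of Dlk1 and Nupl2 are shown because these genes were the 1 pair called as correlated within genotype (permutation adjusted p = 0.0490). The call was not stable. It held in 2 of 16 fits that left out 1 mouse and not with Spearman's rho (permutation adjusted p = 0.336). Shared regulation was not tested. Each sequence runs from 250 bases before to 50 bases after the start of the gene in RefSeq, on the plus strand of GRCm38.p6, at chr12:109452573-109452872 for Dlk1 and chr5:24164713-24165012 for Nupl2. Capitals mark a CCAAT motif read on the opposite strand.
Dlk1: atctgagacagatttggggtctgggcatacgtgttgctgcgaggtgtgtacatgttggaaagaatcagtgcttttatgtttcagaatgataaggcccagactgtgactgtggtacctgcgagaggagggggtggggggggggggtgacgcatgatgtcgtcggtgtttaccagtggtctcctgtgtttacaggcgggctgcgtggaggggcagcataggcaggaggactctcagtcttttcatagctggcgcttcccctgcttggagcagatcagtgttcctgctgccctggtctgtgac
Nupl2: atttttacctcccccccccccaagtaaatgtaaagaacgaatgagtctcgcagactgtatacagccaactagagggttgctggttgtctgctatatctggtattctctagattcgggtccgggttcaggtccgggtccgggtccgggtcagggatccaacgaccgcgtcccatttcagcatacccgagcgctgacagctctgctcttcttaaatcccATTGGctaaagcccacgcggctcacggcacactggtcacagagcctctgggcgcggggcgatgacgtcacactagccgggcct
Promoters of this table were found for 6 of the 9 genes. Both strands were searched for the TATA box TATAAA, the CCAAT box, the GC box GGGCGG and the E-box CACGTG, of which no motif contains another. The Dlk1 window held no match and the Nupl2 window held 1, the CCAAT match. Among 27025 mouse promoters of the same length, 37.9% held CCAAT, 14.2% TATAAA, 35.9% GGGCGG and 7.24% CACGTG. The Dlk1 window had a GC content of 55.7% and 9 CG dinucleotides, and the Nupl2 window 57.0% and 20, beside medians of 52.7% and 7 over all promoters. A match is a description of the letters and not a bound site.

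Rgs1 encodes a GTPase activating protein that shortens signalling by chemokine and other G protein coupled receptors, best known in lymphocytes. Its log ratio was -0.463 at the lowest, -0.332 at the median and 0.0267 at the highest in the 8 Lpl+/- livers, against -0.215, 0.0338 and 0.182 in the 8 wild type livers. Lpl+/- 6 was the only Lpl+/- mouse above the pool, and 6 of the 8 Lpl+/- mice lay below the whole wild type range. The means were -0.289 ± 0.153 and 0.00593 ± 0.142 (SD, n = 8 each), a difference of -0.295 or a fold of 0.507.

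Dlk1 encodes an imprinted transmembrane protein related to Notch ligands, known for holding back the differentiation of fat cell precursors and abundant in fetal liver. It ran from -0.0905 through a median of -0.0658 to -0.0165 in Lpl+/- livers, against -0.0439, -0.0106 and 0.0244 in wild type livers. All 8 Lpl+/- mice were below the pool and 7 of them below every wild type mouse, the exception being Lpl+/- 6. The means of -0.0619 ± 0.0222 and -0.00681 ± 0.0256 (SD, n = 8 each) differed by -0.0551, a fold of 0.881.

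Baiap2l1 encodes an adaptor of the I-BAR family that links the plasma membrane to actin filaments. Its lowest, median and highest values were -0.171, -0.101 and -0.0443 in Lpl+/- livers, against -0.148, -0.0184 and 0.179 in wild type livers. Every Lpl+/- mouse was below the pool, and 1 lay outside the wild type range. That count rested on wild type 6, the lowest wild type mouse, and was 5 without it and 0 when wild type 8 was turned in sign. Wild type 7, 8 and 9 stood between 0.0958 and 0.179, and the other 5 were negative. The means were -0.100 ± 0.0368 in Lpl+/- and 0.00865 ± 0.111 in wild type livers (SD, n = 8 each), a difference of -0.109.

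Tff3, the trefoil peptide that goblet cells secrete to protect mucous surfaces, had the largest group difference of the 9 genes and the widest spread among wild type mice. It ranged from -0.571 to -0.218 around a median of -0.467 in Lpl+/- livers, and from -0.482 to 0.277 around a median of -0.0456 in wild type livers. All 8 Lpl+/- mice and 4 wild type mice were below the pool, and 4 Lpl+/- mice were below every wild type mouse. Wild type 5 reached -0.482, among the Lpl+/- values, and without it, or with its sign turned, 7 Lpl+/- mice were beyond the wild type values. Wild type 7, 8 and 9 stood at 0.201 to 0.277. The means of -0.432 ± 0.129 and -0.0412 ± 0.268 (SD, n = 8 each) differed by -0.391, a fold of 0.407.

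Akr1b8 encodes an aldo-keto reductase that reduces aldehydes with NADPH. Its values in Lpl+/- livers were -0.147 at the lowest, -0.0856 at the median and -0.0304 at the highest, against -0.0687, 0.00655 and 0.0866 in wild type livers. Lpl+/- 1 alone among the Lpl+/- mice fell inside the wild type range, but Lpl+/- 8 (-0.0692) was barely below wild type 6 (-0.0687). The means were -0.0874 ± 0.0328 and 0.00781 ± 0.0584 (SD, n = 8 each), a difference of -0.0952 or a fold of 0.803.

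Slc25a35 belongs to the carriers of the inner mitochondrial membrane. It was measured at 0.0468 to 0.0755, with a median of 0.0538, in Lpl+/- livers, against -0.0668 to 0.0903 and a median of -0.0013 in wild type livers. The Lpl+/- mice formed a narrow band above the pool. It lay inside the wild type range through wild type 2 alone, since the next highest wild type mouse was at 0.0309, and without wild type 2 all 8 Lpl+/- mice were above the wild type range. The means of 0.0592 ± 0.0126 and 0.000775 ± 0.0479 (SD, n = 8 each) differed by 0.0584.

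Csrp3, the muscle LIM protein of the Z-disc of heart and skeletal muscle, was 0.0467, 0.117 and 0.189 at the lowest, median and highest in Lpl+/- livers, against -0.135, -0.0295 and 0.0965 in wild type livers. All 8 Lpl+/- mice were above the pool and 5 of them above every wild type mouse. That count was 7 without wild type 2, the highest wild type mouse. The means were 0.119 ± 0.0454 and -0.0252 ± 0.0821 (SD, n = 8 each), a difference of 0.144 or a fold of 1.39.

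Ano3, of the anoctamin family of calcium-dependent membrane proteins, stood at 0.012 to 0.1035 with a median of 0.0561 in Lpl+/- livers, against -0.0662 to 0.0307 with a median of -0.0157 in wild type livers. Of the 8 Lpl+/- mice 5 were above the wild type range and 3 within it. The count was 8 without wild type 6, the highest wild type mouse, and 2 when wild type 5 was turned in sign. The means of 0.0505 ± 0.0314 and -0.0164 ± 0.0304 (SD, n = 8 each) differed by 0.0669, a fold of 1.17.

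Nupl2 encodes a nucleoporin of the cytoplasmic face of the pore that takes part in export of mRNA. Its lowest, median and highest values were -0.0685, -0.0367 and -0.0016 in Lpl+/- livers, against -0.0314, 0.0211 and 0.0477 in wild type livers. As for Dlk1 and Rgs1, Lpl+/- 6 was the highest of the Lpl+/- mice. Of the 8 Lpl+/- mice 7 lay below the wild type range, and wild type 7 was the lowest wild type mouse. Among the 7, Lpl+/- 1 (-0.0322), Lpl+/- 7 (-0.0316) and Lpl+/- 8 (-0.0319) were barely below wild type 7 (-0.0314). When wild type 5 was turned in sign it became the lowest instead, and 3 Lpl+/- mice were then below the range. The means were -0.0400 ± 0.0211 and 0.0169 ± 0.0286 (SD, n = 8 each), a difference of -0.0569 or a fold of 0.877.

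**Figure D1:**
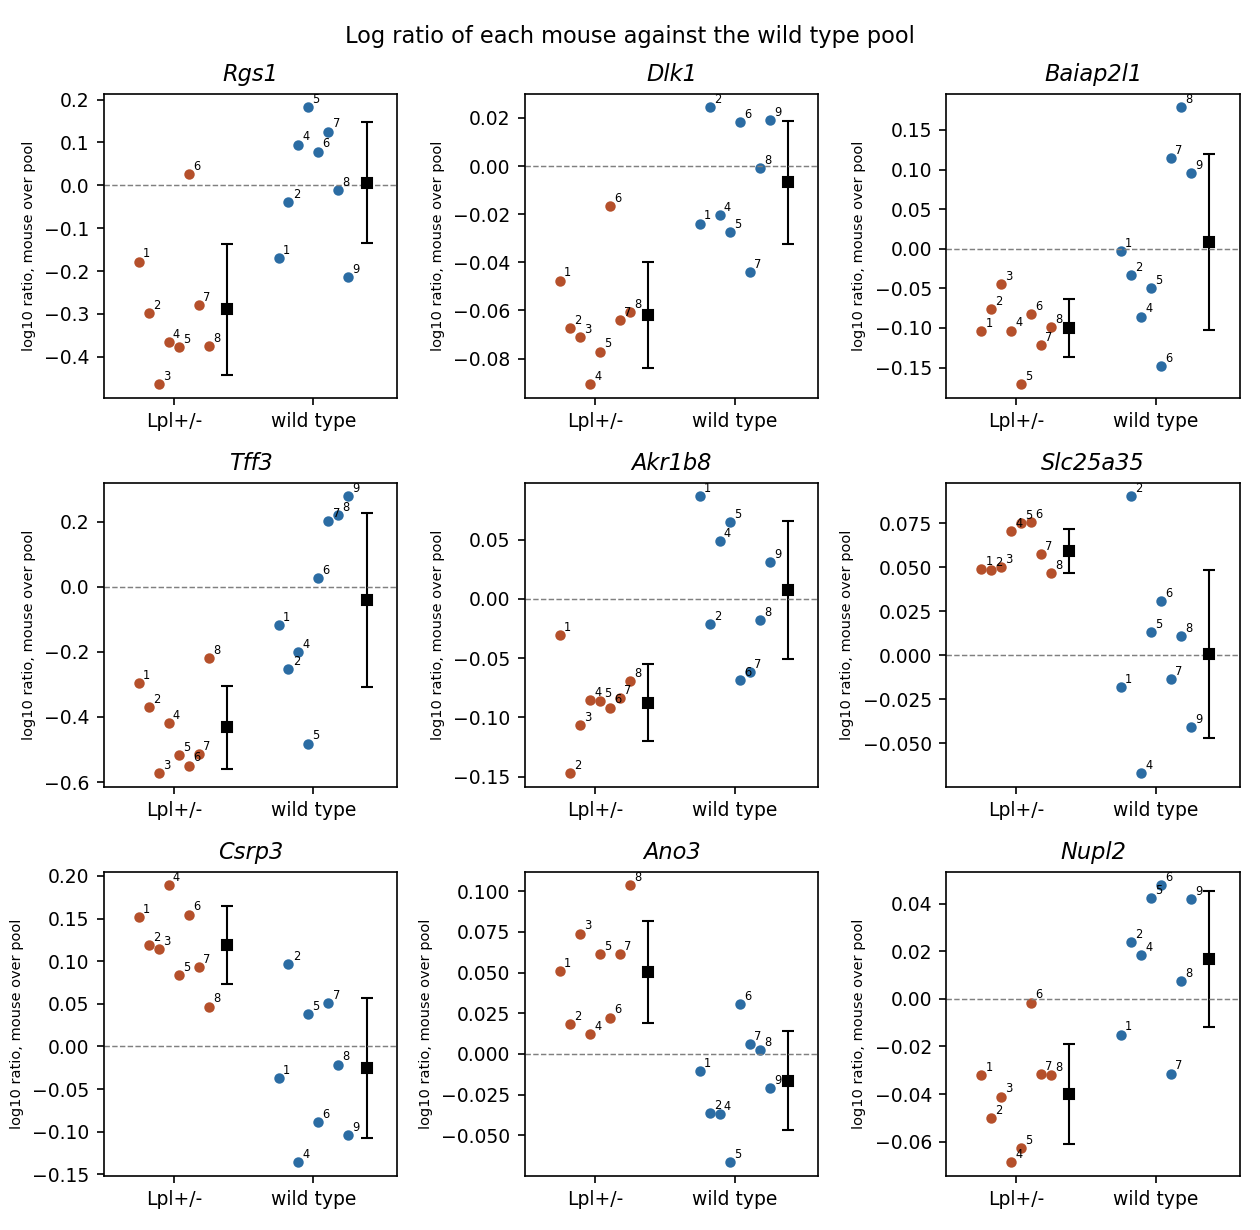
Log10 ratio of each mouse over the pool (y axis, own scale per gene) for the 9 genes, with Lpl+/- mice left and wild type mice right, 8 each, numbered by replicate; squares and bars are the mean and SD, and the dashed line is the pool. The groups overlap in all 9 genes, Lpl+/- 6 is highest of its group for Rgs1, Dlk1 and Nupl2, and for Slc25a35 wild type 2 alone is above the Lpl+/- mice, the other 7 wild type mice being below them all.

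The 9 genes were thus 3 higher and 6 lower in Lpl+/- livers. With limma and Benjamini-Hochberg adjustment over all features, 0 of the 9 passed 0.05 in the comparison of Lpl+/- with wild type livers, beside 6 of 36824 features (0.0163%). Before adjustment 9 of 9 were below 0.05, beside 5.60% of all features, and nothing is read from this count: 6 of the genes were chosen on this comparison and the other 3 on the same Lpl+/- arrays. The ranges of the groups overlapped in each of the 9 genes, and did not overlap in 14 of all features (0.038%). The overlap came through 1 wild type mouse each in Ano3 (wild type 6) and Slc25a35 (wild type 2). It came through 1 Lpl+/- mouse each in Dlk1 (Lpl+/- 6), Nupl2 (Lpl+/- 6) and Akr1b8 (Lpl+/- 1).

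Among genes higher in Lpl+/- livers, Ano3 was the last of the 9 inside the choice with a difference of 0.0669. Rbl2 (0.253), which lies on chromosome 8 and so is not among the 9, followed it inside, and Setd3 (0.0772) was the first gene outside. Among lower genes Akr1b8 was the last inside with -0.0952, and Olfr338 (-0.0664) came next. Clone names that have no gene symbol had been passed over in that choice. Against the pool, Csrp3 was the last of the 9 genes that passed, with an Lpl+/- mean of 0.119. Isoc2b, with 0.106, was the first gene that did not pass.

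Csrp3, Tff3, Slc25a35 and Baiap2l1 were chosen on the 8 Lpl+/- arrays against the pool, and the fit of these arrays alone called them. Its count of 4 of the 9 genes is therefore that of the choice, out of 23 features called by limma (0.0625%). This fit alone did not make the choice. Ehhadh, Cyp1a1, Nr4a1, Dnajb4 and Jun passed it too, lie outside chromosome 8 and are not among the 9 genes. With all 16 arrays in the fit, limma called 3 of the 9 (Rgs1, Dlk1 and Tff3), beside 20 features (0.0543%). The Lpl+/- arrays are the same in both fits, so these calls too are a description. With all 16 arrays the count was 0 without Lpl+/- 2, Lpl+/- 3 or Lpl+/- 5 and 1 without Lpl+/- 7.

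The spread among wild type mice was the larger one for 7 of the 9 genes. The ratio of the Lpl+/- and wild type spreads, given as wild type SD over Lpl+/- SD, was 3.81 for Slc25a35, 3.02 for Baiap2l1, 2.08 for Tff3, 1.81 for Csrp3 and 1.78 for Akr1b8, beside a median of 0.997 over all features. The fit of the Lpl+/- arrays alone favours genes with an Lpl+/- SD that is small for their mean. The ratios of Slc25a35, Baiap2l1, Tff3 and Csrp3 can therefore be in part fixed by the choice. Akr1b8 was chosen on the group comparison instead. Among all features, the Lpl+/- SD stood at percentile 1.58 for Slc25a35, 43.2 for Baiap2l1, 57.0 for Csrp3 and 94.7 for Tff3.

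The wild type arrays were not used to choose Tff3, Slc25a35 and Baiap2l1, and show how these genes stood against the same pool in mice with both Lpl alleles. The pool is itself of wild type livers, so the design favours wild type means near 0 for any gene. The tests below therefore cannot set these 3 genes apart from other genes. Wild type livers averaged -0.0412 for Tff3 (exact sign-flip permutation p = 0.680), 0.000775 for Slc25a35 (exact sign-flip permutation p = 0.977) and 0.00865 for Baiap2l1 (exact sign-flip permutation p = 0.828), two-sided, where 256 sign patterns allow no p under 0.00781. Adjusted over the 3 tests, each of these p-values was 0.977. Signs were mixed, with 4 of 8 wild type mice above the pool for Tff3, 4 for Slc25a35 and 3 for Baiap2l1. By limma, 0 of 36824 features passed the adjusted threshold in wild type livers against the pool (0%), and 691 had an unadjusted p under 0.05, none of the 3 genes among them. The signs of these small means turned under some alternatives, given under the effects of processing.

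When wild type 5 was turned in sign, the differences of Lpl+/- minus wild type were -0.249 for Rgs1, -0.0619 for Dlk1, -0.122 for Baiap2l1, -0.511 for Tff3, -0.0789 for Akr1b8, 0.0617 for Slc25a35, 0.154 for Csrp3, 0.0503 for Ano3 and -0.0463 for Nupl2. When wild type 8 was turned instead, they were -0.297 for Rgs1, -0.0553 for Dlk1, -0.0643 for Baiap2l1, -0.336 for Tff3, -0.0997 for Akr1b8, 0.0612 for Slc25a35, 0.139 for Csrp3, 0.0675 for Ano3 and -0.0550 for Nupl2. No sign changed. Over 27 alternatives and 9 genes, 243 of 243 differences kept their sign, which the choice of the genes favours. Some alternatives could not move a difference. The robust, trended variance leaves the means as they are, and each gene had 1 probe and no value at the limit. Limit values set missing and probes taken singly therefore repeated the same values, and the replicate block repeated those of the same 14 arrays without a block. The difference of Baiap2l1 with wild type 8 turned was the 1 value that moved by over 1.5 times.

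**Figure D2:**
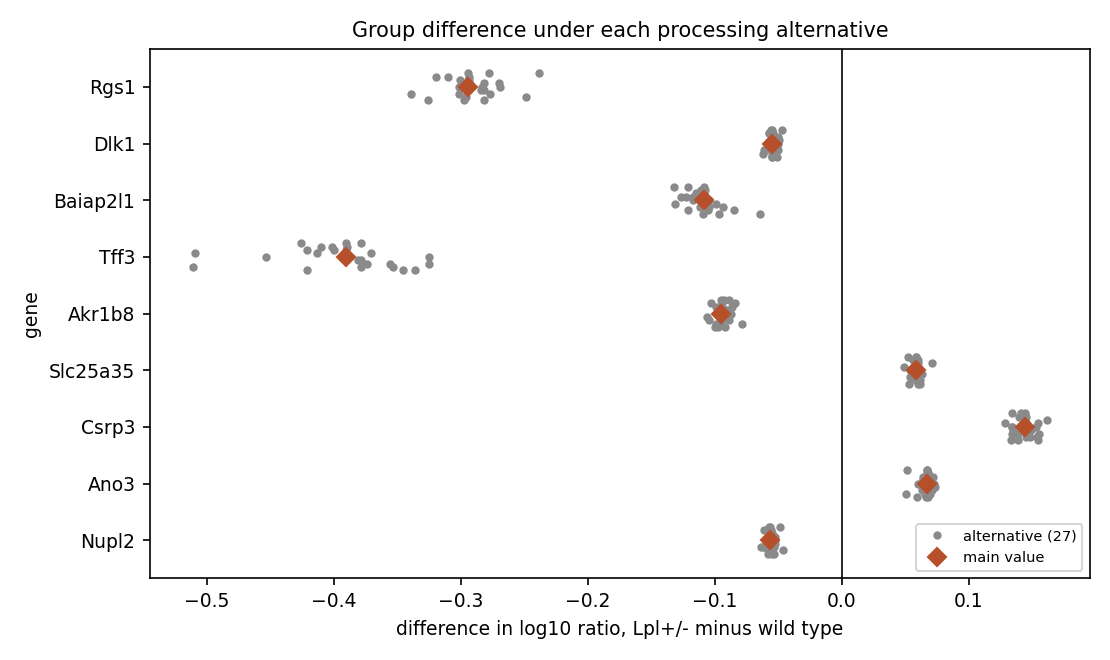
Difference in log10 ratio, Lpl+/- minus wild type (x axis), for each of the 9 genes (y axis) under 27 alternatives (grey points) and in the fit of all 16 arrays (diamonds). Points of a gene stay on the same side of 0, and those of Tff3 spread most, between -0.511 and -0.325.

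How the genes varied among themselves was not used in their choice. Each gene was centred on the mean of its genotype, and Pearson's r was computed over the 16 mice for all 36 pairs, with Benjamini-Hochberg adjustment over the 36. Dlk1 and Nupl2 were the 1 pair that passed (r = 0.766, permutation p = 0.00136, adjusted p = 0.0490). Csrp3 with Slc25a35 (r = 0.650, permutation adjusted p = 0.446) and Ano3 with Tff3 (r = 0.531, permutation adjusted p = 0.446) were below 0.05 before adjustment. The other r values ran down to -0.437. Tff3 and Baiap2l1, both highest in wild type 7, 8 and 9, had r = 0.563 (permutation adjusted p = 0.718).

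The correlation of Dlk1 with Nupl2 was positive in both genotypes, with r = 0.941 in Lpl+/- mice (exact p = 4.46e-04) and r = 0.658 in wild type mice (exact p = 0.0810). In Lpl+/- mice, number 4 was lowest and number 6 highest for both genes, and in wild type mice number 7 was lowest for both. Spearman's rho was 0.676 (permutation p = 0.00933, adjusted p = 0.336). Without the 2 mice farthest from the Dlk1 median, Lpl+/- 6 and wild type 2, r was 0.741 and no longer passed (permutation p = 0.0120, adjusted p = 0.432). The call held in 2 of the 16 fits that left out 1 mouse, those without wild type 2 or wild type 5, and ended with the sign of wild type 5 (r = 0.580, permutation adjusted p = 0.367) or of wild type 8 (r = 0.730, permutation adjusted p = 0.139) turned. Both genes share the arrays, so any offset of a whole array is in both.

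**Figure D3:**
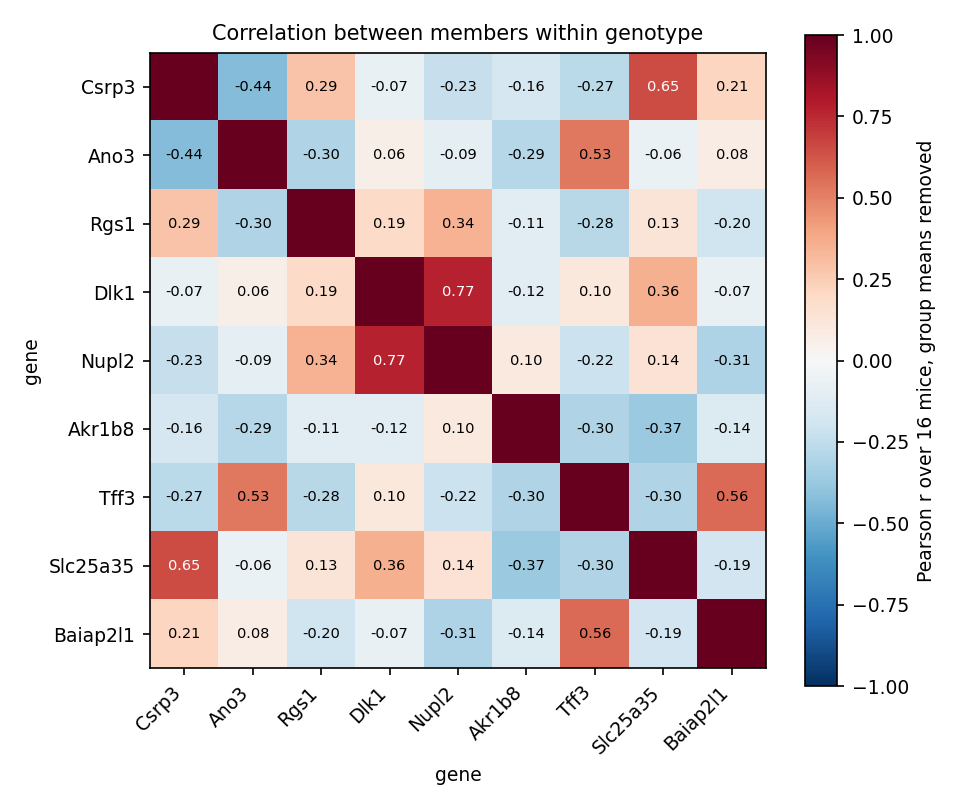
Pearson r between each pair of the 9 genes over 16 mice after the mean of each genotype was removed (colour and printed values, rows and columns are genes). Dlk1 with Nupl2 has the highest r (0.766), and the lowest is -0.437.

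The 9 genes were also set against Lpl, against Dbp and Saa1, which follow the time of day and the acute phase, and against the mean of a list of cell markers chosen for each. By Pearson's r, 0 of these 36 relations passed after adjustment and 1 was below 0.05 before it, Nupl2 with Saa1 (r = -0.591, permutation adjusted p = 0.508). Rgs1 had r = 0.159 with Lpl (permutation adjusted p = 0.944) and r = -0.0563 with the lymphocyte markers (permutation adjusted p = 0.944). Csrp3 had r = -0.352 with the striated muscle markers (permutation adjusted p = 0.707). Akr1b8 had r = -0.540 with the macrophage and Kupffer cell markers (permutation adjusted p = 0.508). By Spearman's rho 0 of the 36 relations passed after adjustment. This relation of Akr1b8 was the 1 below 0.05 before it (rho = -0.682, permutation adjusted p = 0.346), and Nupl2 with Saa1 was not.

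Over all 20461 other features with a symbol, the genes most like each candidate were taken by r over the 16 mice, again within genotype and as a description. Rgs1 was most like Repin1, which encodes a zinc finger protein, and Il1b, the gene of the cytokine interleukin 1 beta (r = 0.838 each). Il1b averaged -0.429 ± 0.262 in Lpl+/- livers and -0.0383 ± 0.309 in wild type livers (SD, n = 8 each), with a limma adjusted p of 0.836. Its r with Rgs1 was 0.924 in Lpl+/- mice and 0.771 in wild type mice. Lpl+/- 6 was the one Lpl+/- mouse above the pool for both genes, and wild type 1, 2 and 9 were below it for both.

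**Figure D4:**
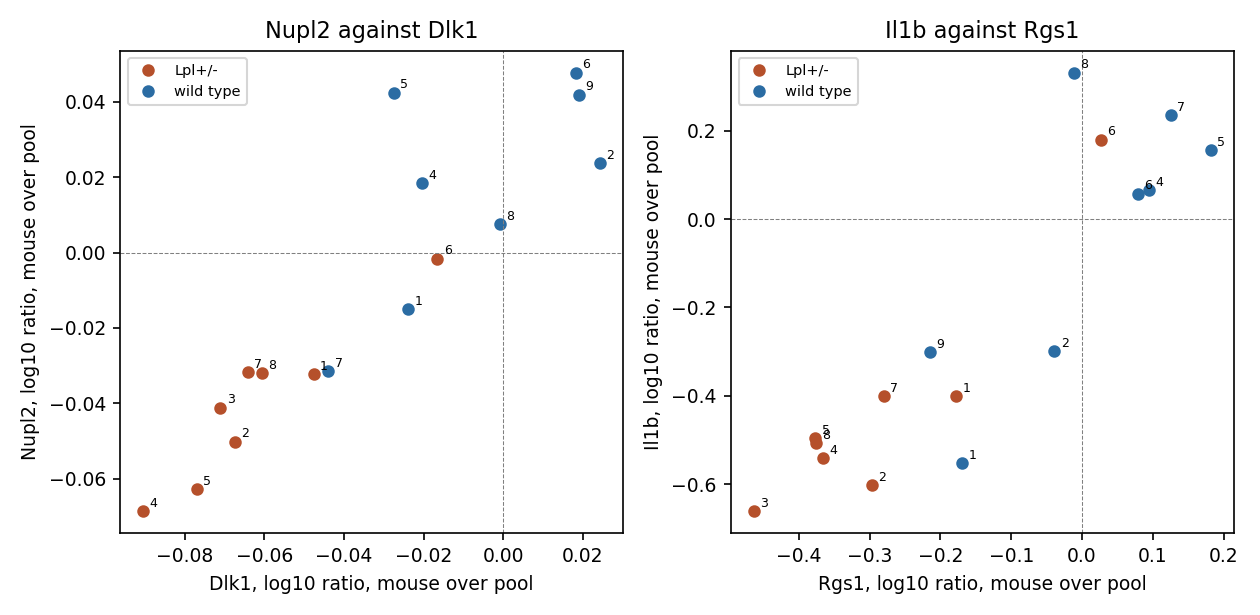
Log10 ratios over the pool of Nupl2 against Dlk1 (left) and of Il1b against Rgs1 (right), 1 point per mouse, Lpl+/- in red and wild type in blue, numbered by replicate. In the left plot 7 Lpl+/- mice form the lower left and Lpl+/- 6 stands above them, and in the right plot Lpl+/- 6 lies among the wild type mice.

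For the other candidates, Baiap2l1 was most like Lhpp, which encodes a phosphatase (r = 0.917), and Tff3 most like the odorant receptor gene Olfr1037 (r = 0.907). Ano3 was most like Plpp7 (r = 0.899) and Csrp3 most like Hddc3 (r = 0.864) and the glutathione transferase gene Mgst1 (r = 0.826). Dlk1 was most like Nyap1 (r = 0.830) and the semaphorin gene Sema4d (r = 0.821), and Nupl2 most like the noncoding RNA gene Firre (r = 0.823) and Igfbp3, which encodes a binding protein of insulin-like growth factors (r = 0.817). The most opposed gene was Ntan1 for Ano3 (r = -0.925) and Cstf3 for Baiap2l1 (r = -0.884). An r over 0.8 was reached by 20 features with Baiap2l1 and 19 with Tff3, but by 1 with Akr1b8 and 2 with Rgs1.

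The relatives and pathway partners of the candidates were counted next. In these lists 177 genes were measured, of which 0 passed the adjusted limma threshold and 7 had an unadjusted p under 0.05, 4 of them higher and 3 lower in Lpl+/- livers (3.95%, beside 5.60% of all features). The median difference was 0.000775 over these genes and 0.000531 over all features.

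Among relatives of the signalling genes, 0 of 17 other RGS genes, 0 of 11 imprinted growth genes, 0 of 14 Notch pathway genes and 0 of 11 I-BAR and actin genes had an unadjusted p under 0.05. Meg3, the noncoding RNA gene of the imprinted region that also holds Dlk1, averaged 0.0166 ± 0.0100 in Lpl+/- and 0.00416 ± 0.0153 in wild type livers (SD, n = 8 each), with a limma adjusted p of 0.836. Rgs18, a relative of Rgs1 found in blood cells, differed by 0.0236 (limma adjusted p = 0.836), opposite in sign to Rgs1. Rgs7 differed by -0.348 (limma adjusted p = 0.836), with an SD of 0.703 among Lpl+/- mice. The sign was that of Rgs1 for 10 of the 17 other RGS genes and opposite for 7. Dlk2, the closest relative of Dlk1, differed by 0.023 (limma adjusted p = 0.836). Plagl1, an imprinted growth gene, differed by -0.0565 (limma adjusted p = 0.836). The sign was that of Dlk1 for 8 of the 11 imprinted growth genes and opposite for 3.

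Of 10 trefoil, goblet cell and mucin genes 2 had an unadjusted p under 0.05, in opposite directions. Spdef, a transcription factor of goblet cells, averaged -0.0514 ± 0.0295 in Lpl+/- and 0.0108 ± 0.0479 in wild type livers, and Agr2, which encodes a protein needed to make mucin, 0.0737 ± 0.0732 and -0.00677 ± 0.0817 (SD, n = 8 each, limma adjusted p = 0.836 for both). Tff1 differed by -0.0567 (limma adjusted p = 0.836).

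Of 13 other aldo-keto reductases 1 had an unadjusted p under 0.05. This was Akr1c6, a hydroxysteroid dehydrogenase of liver, at 0.0574 ± 0.0299 in Lpl+/- and -0.0347 ± 0.067 in wild type livers (SD, n = 8 each, limma adjusted p = 0.836). Akr1b10, closest to Akr1b8 in name and also on chromosome 6, differed by -0.0424 (limma adjusted p = 0.836). Of 17 target genes of the stress factor NRF2, 0 had an unadjusted p under 0.05. Among 34 other mitochondrial carriers there were 2, and Slc25a17, the carrier of peroxisomes, was one of them with a difference of 0.0711 (limma adjusted p = 0.836).

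Of 19 muscle LIM and Z-disc genes and 9 other anoctamins, 0 had an unadjusted p under 0.05, and 2 of 22 nucleoporins and export factors did. Nup205, a scaffold nucleoporin, differed by 0.028 and Rae1, an export factor, by -0.0335 (limma adjusted p = 0.836 each).

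Markers of other cells were listed because several of the 9 genes are known mainly outside the hepatocyte. Of 76 measured markers, 6 of them of hepatocytes themselves, 0 passed the adjusted limma threshold. An unadjusted p under 0.05 was found for 3, all lower in Lpl+/- livers (3.95%, beside 5.60% of all features). These were 1 hepatocyte marker (Apoa1), 1 stellate and fibroblast marker and 1 neuron marker. The mean of 11 striated muscle markers, set beside Csrp3, lay between -0.00718 and 0.0274 in Lpl+/- and between -0.0212 and 0.0305 in wild type mice. That of 10 lymphocyte markers, set beside Rgs1, lay between -0.0247 and 0.0400 in Lpl+/- and between -0.0375 and 0.0485 in wild type mice. That of 9 macrophage and Kupffer cell markers, set beside Akr1b8, was wider, between -0.185 and 0.129 in Lpl+/- and between -0.154 and 0.155 in wild type mice. Of these 9 markers 8 were lower and 1 higher in Lpl+/- livers, with a median difference of -0.0420. Of 9 stellate and fibroblast markers, set beside Dlk1, 7 were lower and 2 higher, with a median of -0.0233. Over all 76 markers 44 were lower and 32 higher. The groups overlapped in each, and the part of other cells in the differences of the 9 genes was not tested. The largest single marker difference of these lists was that of Marco, a scavenger receptor of macrophages, at -0.144 (limma adjusted p = 0.890).

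Finally, the genes next to the candidates were examined in RefSeq gene order. Of the 90 measured genes within 5 places on either side, 2 had an unadjusted p under 0.05 (2.22%, beside 5.52% of all placed genes) and 0 passed the adjusted limma threshold. These were Dbx1 near Csrp3, which differed by -0.0435 where Csrp3 differed by 0.144, and Nptx2 next to Baiap2l1, which differed by 0.053 where Baiap2l1 differed by -0.109 (limma adjusted p = 0.836 each). In both cases the neighbour and the candidate had opposite signs. Without 1 mouse the count rose to as much as 10, without Lpl+/- 6. It was also over 1.5 times the count of all mice without Lpl+/- 3 (4), Lpl+/- 4 (5), Lpl+/- 7 (4), wild type 1 (6), wild type 4 (5), wild type 6 (7) or wild type 7 (4).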

How the data were processed

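Liver RNA of 8 Lpl+/- and 8 wild type mice was measured on 2-colour arrays against a pool of 9 wild type livers, with dyes swapped per the design text and RNA amplified by an aminoallyl method per the labels' protocols. The authors deposited log ratios, taken here as log10 since they end at exactly 2 and -2. Their scanner, background correction, normalization and way of joining swapped arrays are not given in the sources used here. Values were left as deposited. The array held 39556 probes, 23283 with a symbol, and averaging per symbol gave 36824 features, with names and gene order from RefSeq GRCm38.p6.

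Groups were compared with limma 3.58.1 in R 4.3.3 (lmFit and eBayes over all features, two-sided, Benjamini-Hochberg adjustment, threshold 0.05, no block). Correlations used 100000 permutations within genotype. Scripts ran in Python 3.11.15 and were tested on simulated data. The number of mice limits the precision, and the spread between mice is biological and technical together. Replicate numbers were not used to pair mice.

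The candidates and the gene lists were chosen with earlier results of these data known. Named genes are Lpl, the 9 candidates and, for each, the 3 features most like it and the 1 least like it (fewer are printed). Others are up to 3 genes per list by smallest p, the marker with the largest difference and neighbours at an unadjusted p under 0.05. Genes at the border of the choice, or called in the fit of the Lpl+/- arrays alone, are named too. A planned comparison of the proteins of relatives was not used here. Alternatives covered centring, quantile normalization, array weights, variance model, limit values, turned signs, the replicate block and each mouse left out. The fit of the Lpl+/- arrays alone was added after seeing the data.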

Additional observations from a re-analysis of the deposited data

How the results depend on the processing

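Lpl+/- against wild type, the 9 differences kept their sign in 243 of 243 values over 27 alternatives, some of which could not move a difference. By limma 0 of the 9 genes was called in any alternative, beside 9 at an unadjusted p under 0.05 with all mice. The 6 called features became 0 with quantile normalization (1923 at an unadjusted p under 0.05) or a robust, trended variance (1979), 1 without the 3 arrays that held the most limit values, 3 with wild type 8 turned and 1 to 9 when 1 mouse was left out. With the replicate number as a block the count was 1, and the same 14 arrays without a block gave 1 too. Same-numbered mice correlated between -0.245 and 0.381. The labels do not say that the numbers pair mice, and whether they do was not tested. Against the pool the 3 called candidates became 1 with quantile normalization, 0 with the robust variance or without the 3 arrays, and 0 to 4 when 1 mouse was left out. The wild type mean of Slc25a35 was -1.96e-04 with array weights, -8.75e-05 after centring, -0.00253 with wild type 5 turned and -0.00198 with wild type 8 turned (leaving out 1 mouse, -0.0120 to 0.0104). That of Tff3 was 0.0169 with quantile normalization and 0.0792 with wild type 5 turned (leaving out 1 mouse, -0.0867 to 0.0217), and that of Baiap2l1 was -0.0360 with wild type 8 turned (leaving out 1 mouse, -0.0156 to 0.0310). Neighbours at an unadjusted p under 0.05 numbered 6 with array weights, 4 after centring, 1 without the 3 arrays, 5 of 180 within 10 places and 2 to 10 when 1 mouse was left out. Family genes numbered 11 with array weights and 5 to 11 when 1 mouse was left out, and markers 6 with wild type 8 turned and 1 to 6 when 1 mouse was left out. Pairs called by correlation were 0 with Spearman's rho, in wild type mice alone, with quantile normalization, with wild type 5 or 8 turned and without the 2 farthest mice, and 0 to 1 when 1 mouse was left out. For Dlk1 with Nupl2 these settings gave 0.676, 0.658, 0.761, 0.580, 0.730 and 0.741, and 0.698 to 0.903 when 1 mouse was left out. The cause of these changes was not tested. Signal over background is not given in the values, so dim probes could not be told from bright ones.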

Other observations

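The features of Repin1 and Il1b, the genes most like Rgs1, held almost the same values in every mouse (r = 0.999 over 16 mice, largest difference 0.0407), although each is 1 probe and the genes lie on chromosomes 6 and 2. Whether both probes measured the same transcript was not tested, so they are not separate evidence of likeness to Rgs1.

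The 72 relations of the candidates with each other and with reference genes and marker lists were also computed within each genotype, 144 values in all. Of these 0 passed after adjustment over the 144 and 15 had an exact p under 0.05, 7 in Lpl+/- mice and 8 in wild type mice. The smallest was that of Dlk1 with Nupl2 in Lpl+/- mice (exact p = 4.46e-04, adjusted p = 0.0643), followed by Dlk1 with Lpl, which had r = 0.166 in Lpl+/- mice and r = 0.915 in wild type mice (exact p = 0.00399, adjusted p = 0.269 for the wild type value). The difference between the genotypes was not tested.

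In 18 groups of 8 mice, 2 for each of the 9 genes, 0 held a highest or lowest mouse far enough from the others to pass Dixon's bound, where chance gives about 1 in 20.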
